A study of Rattus norvegicus with 10 samples.

Results

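The 10 genes described here make or mark pigmented epithelium. Of these, 7 belong to melanin synthesis and the melanosome (Tyr, Tyrp1, Dct, Mitf, Pmel, Mlana and Slc45a2), and 3 mark the retinal pigment epithelium or the retinoid chemistry it shares with its neighbours (Rpe65, Rlbp1 and Ttr). They were chosen by name, and each was read from a probe set that the platform annotation assigns to that gene alone (the brightest on average, had there been several). By this rule 8 of the 10 were measured, of 14324 genes so named on 27342 probe sets. Each of the 8 had 1 such probe set. Dct and Pmel, the latter searched also under its older names Silv and Pmel17, had none in the annotation used and were not analysed here.

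The study measured retinal RNA of rats at postnatal day 3 by Affymetrix whole-transcript arrays, each array holding a pool of 3 rats out of 2 litters. The sample titles do not say whether pigment epithelium or choroid was taken along with the retina. The groups were SD (Sprague Dawley) rats in cyclic hyperoxia (2 pools), SD rats in room air (3 pools), F344 (Fischer) rats in cyclic hyperoxia (3 pools) and F344 rats in room air (2 pools). Exposed litters entered an oxygen chamber within 12 hours of birth and lived in 80% and 21% oxygen by turns of 24 hours, the early stage of oxygen-induced retinopathy. The design text calls SD susceptible and F344 resistant, names no transgene or mutation, and says that 1 array each of SD room air and F344 hyperoxia joined the first 8 once these had been through principal component analysis. The arrays numbered 3 were taken to be the added ones, which is inferred from the numbering.

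Melanin is made inside melanosomes, organelles of pigment cells. Tyrosinase, encoded by Tyr, starts the pathway from tyrosine, and its relatives Dct and Tyrp1 act on later intermediates. Pmel forms the fibrils on which melanin is laid down, Mlana is a small melanosomal membrane protein, Slc45a2 is a melanosomal transporter, and Mitf is the transcription factor that switches these genes on. Both strains are albino, and laboratory albino rats carry a missense change in Tyr that leaves the cells in place and the transcript made, but the melanosomes without pigment. In the eye these genes are active in the retinal pigment epithelium, a monolayer behind the photoreceptors, and in melanocytes of the choroid; the neural retina itself makes no melanin.

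The tyrosinase family is known to be switched on by Mitf through the motif TCATGTG, the core of the M-box, so the bases before the start are shown for the 4 members whose promoter window holds it: Tyr, Tyrp1, Dct and Mlana. They are the 250 bases upstream of the start given by RefSeq (build GRCr8), 5′ to 3′ along the gene, with capitals marking TCATGTG, the shorter CATGTG and the Otx and Crx homeodomain motif TAATCC on either strand.
Tyr (chr1:150622858-150623107, minus strand): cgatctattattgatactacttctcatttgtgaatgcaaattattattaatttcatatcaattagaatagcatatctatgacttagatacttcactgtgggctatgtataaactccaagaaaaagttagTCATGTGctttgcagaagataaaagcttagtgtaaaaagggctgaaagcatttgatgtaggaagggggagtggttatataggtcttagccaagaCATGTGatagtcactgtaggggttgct
Tyrp1 (chr5:100326875-100327124, plus strand): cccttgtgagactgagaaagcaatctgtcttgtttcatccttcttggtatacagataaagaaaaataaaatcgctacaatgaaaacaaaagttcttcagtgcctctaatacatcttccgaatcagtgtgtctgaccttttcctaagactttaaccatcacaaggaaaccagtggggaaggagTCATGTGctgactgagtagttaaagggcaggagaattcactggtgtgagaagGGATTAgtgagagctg
Dct (chr15:101508030-101508279, minus strand): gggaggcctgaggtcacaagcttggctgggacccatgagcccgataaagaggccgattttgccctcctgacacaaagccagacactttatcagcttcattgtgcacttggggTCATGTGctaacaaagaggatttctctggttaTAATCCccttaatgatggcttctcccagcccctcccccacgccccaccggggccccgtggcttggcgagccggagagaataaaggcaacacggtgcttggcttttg
Mlana (chr1:236882825-236883074, plus strand): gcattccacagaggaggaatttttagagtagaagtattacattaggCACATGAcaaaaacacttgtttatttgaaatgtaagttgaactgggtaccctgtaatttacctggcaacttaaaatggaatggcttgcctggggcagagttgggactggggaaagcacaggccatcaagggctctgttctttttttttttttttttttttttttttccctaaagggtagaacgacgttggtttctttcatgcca
Promoters were found for 9 members; Slc45a2 had no entry. Windows of 250 bases before to 50 bases after the start were searched, and every match in a member lay before the start. TCATGTG stood in 4 of the 9 members, the 4 shown, against 3.56% of all 33469 promoters. It began at position -121 in Tyr, -68 in Tyrp1 and -138 in Dct, counted back from the start, all on the gene's own strand, and at -204 on the opposite strand in Mlana, where it reads CACATGA along the gene. CATGTG, which every TCATGTG contains, stood in 5 of 9 members and 14% of all promoters, with a further copy at -27 in Tyr and copies at -238 and -103 in Rlbp1. TAATCC stood in 3 of 9 members (Tyrp1, Dct and Rpe65), against 7.17% of all promoters. These are matches of letters, which do not show that a factor bound there.

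The arrays give log2 values, so that a difference of 1 is a doubling. Values of all probe sets ran from 3.1 to 14, and array medians from 5.9 to 6. SD room-air pool 3 (36.41) and F344 hyperoxia pool 3 (30.08) stood apart on the first principal component, which held 34.1% of the variance, with the other 8 arrays at or below -1.77. As a check of the tissue, 13 photoreceptor genes averaged 8.40 to 9.12 over the 10 arrays and 13 progenitor and Mueller glia genes 8.68 to 8.94. Below, adjusted p-values are from limma over all 27342 probe sets, SE is the standard error of the log2 difference, and a change is said to pass at an adjusted p under 0.05. The labels call the pools biological replicates, and p-values rest on the spread among 10 of them. In bulk RNA, fewer cells of a type and less RNA per cell cannot be told apart.

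Tyr, the enzyme that starts melanin synthesis, varied more between pools than any other member, over a range of 1.9. Its log2 values were 6.4 and 5.0 in SD hyperoxia, against 4.7, 5.4 and 6.1 in SD room air (pools 1 to 3). In F344 they were 5.9, 5.8 and 6.6 in hyperoxia, against 5.0 and 5.0 in room air. The SD groups overlapped, and the F344 groups did not: each exposed F344 pool lay above both room-air pools, as in 5.97% of all probe sets.

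Tyrp1, which acts later in the pathway and stabilises tyrosinase, stood at 7.6 and 6.9 in SD hyperoxia, against 6.4, 7.0 and 7.4 in SD room air. In F344 it stood at 6.6, 6.7 and 7.3 in hyperoxia, against 5.9 and 6.2 in room air. Here too the F344 groups were apart and the SD groups overlapped. The lowest SD value, 6.4 in room-air pool 1, lay above both F344 room-air pools.

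The remaining melanin genes moved over narrower ranges. Mlana had values of 5.4 and 5.0 in SD hyperoxia, against 4.8, 5.0 and 5.2 in SD room air, and of 5.3, 5.4 and 5.5 in F344 hyperoxia, against 5.0 and 5.2 in F344 room air. Slc45a2 had 4.7 and 4.6 in SD hyperoxia, against 4.5, 4.4 and 4.7 in SD room air, and 4.7, 4.6 and 4.8 in F344 hyperoxia, against 4.4 and 4.4 in F344 room air. Mitf had 5.6 and 5.4 in SD hyperoxia, against 5.4, 5.7 and 5.5 in SD room air, and 5.7, 5.6 and 5.7 in F344 hyperoxia, against 5.4 and 5.4 in F344 room air. All 3 genes overlapped between the SD groups and were apart between the F344 groups, by 0.1 or 0.2 at the nearest pools, where values are rounded to 0.1. Of all probe sets, 5.97% were apart as higher and 6.32% as lower in F344 hyperoxia, and 7.2% and 8.06% in SD hyperoxia. Slc45a2 lay between the 6.03rd and 21.5th percentile of the arrays, in the dim range, where small differences carry little weight. For Mitf, which is made from several promoters, the gene-level probe set does not separate the form of pigment cells from the others.

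**Figure D1:**
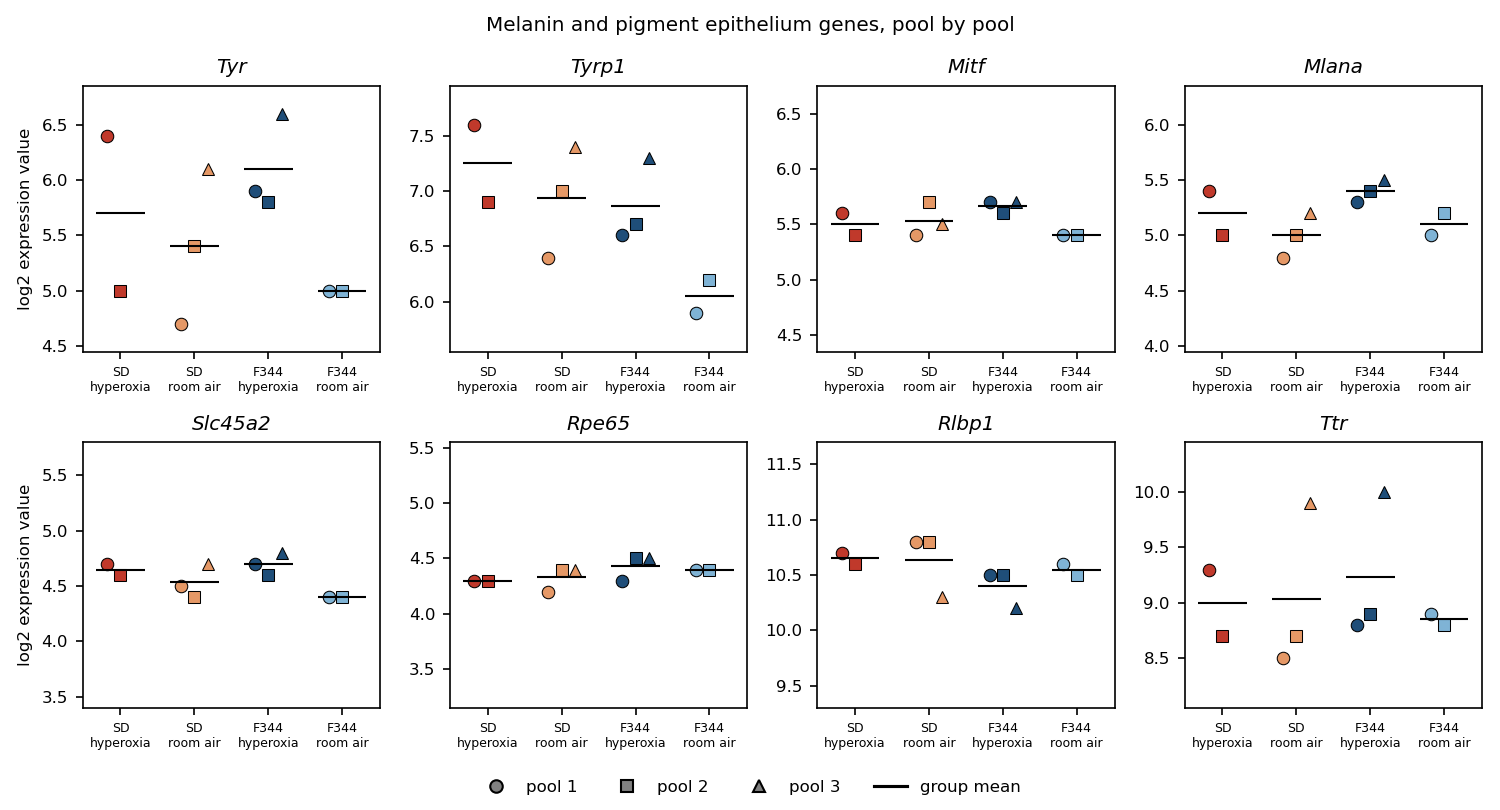
Log2 expression values (vertical axes, of equal span) of the 8 measured genes in the 10 pools, with groups on the horizontal axis, symbols for pool number and a bar for the group mean. Tyr reaches 6.6 in F344 hyperoxia pool 3 and lies at 5.0 in both F344 room-air pools, while Rpe65 stays between 4.2 and 4.5.

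Rpe65, the isomerase that regenerates visual chromophore and is found in the mature pigment epithelium, was dim and nearly flat. It stood at 4.3 and 4.3 in SD hyperoxia, against 4.2, 4.4 and 4.4 in SD room air, and at 4.3, 4.5 and 4.5 in F344 hyperoxia, against 4.4 and 4.4 in F344 room air. These values lie between the 2.71st and 11.1th percentile of their arrays, and whether the probes rose above background was not analysed here, so they set no lower limit on its RNA. A change in Rpe65 could therefore not be read at this signal.

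Rlbp1 encodes the retinaldehyde-binding protein CRALBP of pigment epithelium and Mueller glia. It was bright, at the 94.9th percentile or above on each array. Its values were 10.7 and 10.6 in SD hyperoxia, against 10.8, 10.8 and 10.3 in SD room air, and 10.5, 10.5 and 10.2 in F344 hyperoxia, against 10.6 and 10.5 in F344 room air. Exposed and room-air pools overlapped in both strains, and pool 3 was the lowest of its group in both groups that have one.

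Ttr encodes transthyretin, the carrier of thyroid hormone and of retinol-binding protein, made in the eye by pigment epithelium and ciliary epithelium and in the brain by choroid plexus. It stood at 9.3 and 8.7 in SD hyperoxia, against 8.5, 8.7 and 9.9 in SD room air, and at 8.8, 8.9 and 10 in F344 hyperoxia, against 8.9 and 8.8 in F344 room air. The highest pools were both numbered 3, one exposed and one not, and the exposure groups overlapped in both strains.

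In F344, all 5 measured melanin genes were higher in every hyperoxia pool than in every room-air pool, but none passed the test. Of all probe sets 5.97% were apart in this direction and 6.32% in the other. Tyr differed by 1.10 (SE 0.41, 2.14-fold) and Tyrp1 by 0.82 (SE 0.287, 1.76-fold), with group means of 6.10 ± 0.436 against 5.0 ± 0.0 for Tyr and 6.87 ± 0.379 against 6.05 ± 0.212 for Tyrp1 (SD, n = 3 and 2). Tyr lay as low as the 17.8th percentile of an array and Mlana between the 21.7th and 41.6th, and since signal above background was not examined, a fold at such dim values may differ from that of the transcript. Slc45a2 and Mlana differed by 0.30 each (SE 0.116 and 0.149) and Mitf by 0.27 (SE 0.116). The adjusted p by limma was 0.921 for each of these 5, and unadjusted p-values were 0.0147 for Tyrp1, 0.0198 for Tyr, 0.0234 for Slc45a2, 0.0403 for Mitf and 0.0666 for Mlana. Of all probe sets 0.00366% passed in F344, in either direction, and 4.83% had an unadjusted p under 0.05. The 3 pigment epithelium genes were not apart: Ttr stood at 0.38 (SE 0.4), Rpe65 at 0.03 (SE 0.11) and Rlbp1 at -0.15 (SE 0.157).

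F344 hyperoxia pool 3 is one of the arrays that stand apart. Leaving out the arrays numbered 3 cannot undo the separation of the 5 melanin genes, since every exposed F344 pool already lay above both room-air pools. It is therefore no further check of them, and 10% of all probe sets were apart in this direction without those arrays. Without F344 hyperoxia pool 3 alone the differences were 0.85 for Tyr, 0.60 for Tyrp1, and 0.25 for each of Mitf, Mlana and Slc45a2, with adjusted p of 0.951. That of Ttr was 0.00 in that fit, against 0.38 with the pool. With all pools, photoreceptor genes lay higher in the same comparison. Of 13 measured, 12 were above 0 (median 0.32, against 0.00 over all genes), where 6745 of all 14324 genes were. Of the 13, 0 passed and 5 had an unadjusted p under 0.05 by limma, where 4.83% of all probe sets did. Their mean level was 8.63 to 8.97 in F344 hyperoxia, against 8.40 to 8.41 in F344 room air. Their part in the melanin differences was not tested.

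In SD the melanin genes lay in the same direction except Mitf, by less, and all 8 members overlapped between exposed and room-air pools, where 7.2% of all probe sets were apart as higher and 8.06% as lower. Tyrp1 differed by 0.32 (SE 0.287), Tyr by 0.30 (SE 0.41), Mlana by 0.20 (SE 0.149), Slc45a2 by 0.12 (SE 0.116) and Mitf by -0.03 (SE 0.116), with adjusted p from 0.821 to 0.954. Ttr and Rpe65 stood at -0.03 each and Rlbp1 at 0.02. Called were 0 of 8 by limma, with 0 at an unadjusted p under 0.05, against 0.0439% of all probe sets called and 5.95% at such an unadjusted p. The unadjusted 95% interval for Tyr reached from -0.593 to 1.193, which includes the F344 value. Some of these directions turned with single pools, while Slc45a2 stayed above 0 in every alternative (lowest 0.05). Tyr differed by -0.40 without SD hyperoxia pool 1, by 1.00 without pool 2, and by -0.05 without SD room-air pool 1. Without SD hyperoxia pool 1 Tyrp1 stood at -0.03 and Mlana at 0.00, and without SD room-air pool 3 Ttr stood at 0.40.

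The exposure effect in SD minus that in F344 tests whether the strains responded unequally. Tyr stood at -0.80 (SE 0.581, adjusted p = 0.712), Tyrp1 at -0.50 (SE 0.406), Ttr at -0.42 (SE 0.566), Mitf at -0.30 (SE 0.164), Slc45a2 at -0.18, Mlana at -0.10, Rpe65 at -0.07 and Rlbp1 at 0.17. None of the 8 passed by limma (0 at an unadjusted p under 0.05, where 7.51% of all probe sets were), and no probe set on the array did (0%). Both arrays numbered 3, one exposed F344 and the other unexposed SD, enter this value with a negative sign, so what they share adds up in it.

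A fit with a term for the arrays numbered 3 set the strains closer for 4 of the 5 melanin genes, all but Mitf, whose difference between strains was -0.30 in both fits. In that fit Tyr differed by 0.60 (SE 0.312) between exposed and room-air SD pools and by 0.80 (SE 0.312) in F344; Tyrp1 by 0.54 (SE 0.205) in SD and by 0.59 (SE 0.205) in F344. The values of Mlana were 0.28 in SD and 0.23 in F344, and those of Slc45a2 0.18 and 0.23 in the same order. The difference between strains was -0.20 (SE 0.461) for Tyr and -0.05 (SE 0.303) for Tyrp1, and that of Ttr changed sign to 0.40 (SE 0.227). None of these passed (smallest adjusted p of the 8 members 0.632 in SD, 0.678 in F344 and 0.76 for the difference). The share of all probe sets that passed in this fit is not given here.

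Averaged over strains, 4 melanin genes were higher in hyperoxia at an unadjusted p under 0.05 and none after adjustment, where 0.0402% of all probe sets passed and 4.08% had such an unadjusted p. The average was 0.70 (SE 0.29) for Tyr, 0.57 (SE 0.203) for Tyrp1, 0.25 (SE 0.105) for Mlana and 0.21 (SE 0.0819) for Slc45a2, each with an adjusted p of 0.99. With the term for the arrays numbered 3 the averages were the same and the SE smaller, and the adjusted p was 0.239 for Tyrp1 and 0.414 for Tyr. Mitf averaged 0.12, Ttr 0.18, Rpe65 0.00 and Rlbp1 -0.07.

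**Figure D2:**
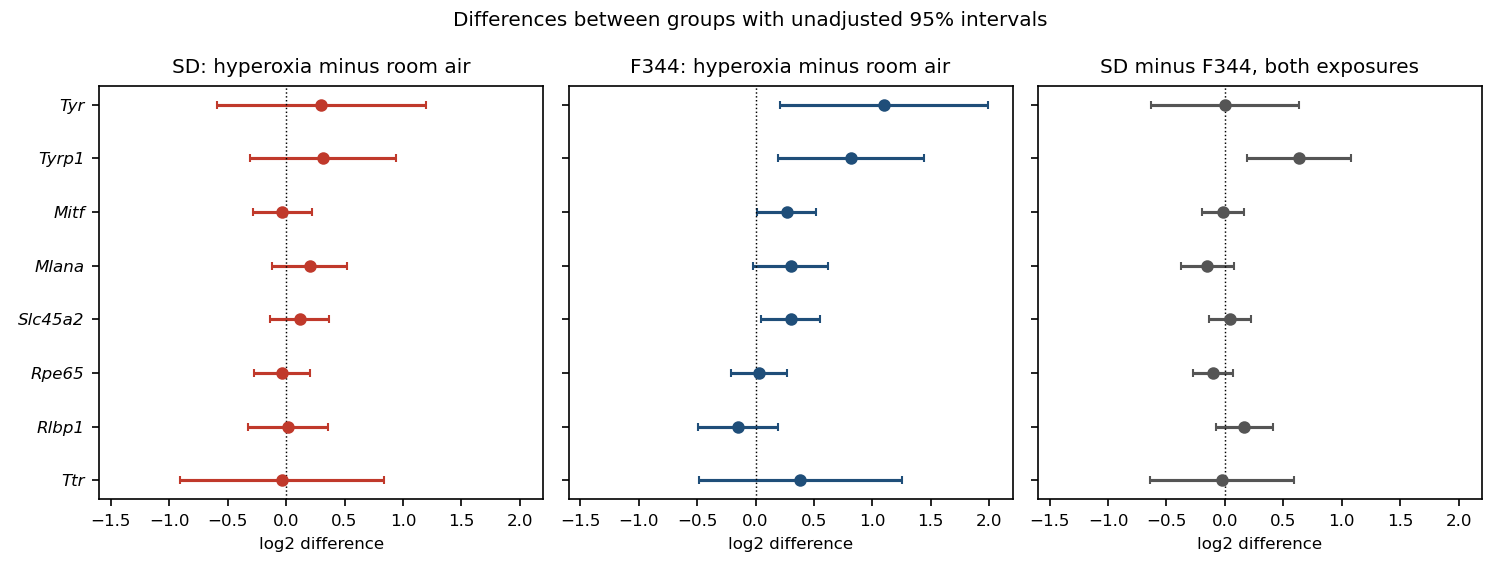
Log2 differences (horizontal axes) of the 8 genes in hyperoxia minus room air for SD and F344, and in SD minus F344 averaged over exposures, with bars for unadjusted 95% intervals of the limma fit. In F344 the intervals of Tyr (0.207 to 1.993), Tyrp1, Mitf and Slc45a2 lie above 0, and in SD all intervals include 0.

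The strains differed most in Tyrp1. Averaged over exposures it was 0.63 higher in SD than in F344 (SE 0.203, 1.55-fold, adjusted p = 0.24), which did not pass; 1.35% of all probe sets passed, 0.808% as higher in SD. It was the single member at an unadjusted p under 0.05, as were 9.13% of all probe sets. With the term for the arrays numbered 3 the same difference passed (SE 0.138, adjusted p = 0.0239), as it did with the replicate number as a block (adjusted p = 0.0436). The share of all probe sets that passed in those fits is not given here, so the calls cannot be set against it. Without both arrays numbered 3 the difference did not pass (0.63, adjusted p = 0.179). Whether the Tyrp1 probes match both strains equally was not examined. In room air Tyrp1 averaged 6.93 ± 0.503 in SD and 6.05 ± 0.212 in F344 (SD, n = 3 and 2), a difference of 0.88 (SE 0.287, adjusted p = 0.269) with no overlap, where 9.94% of all probe sets were apart in this direction, 9.81% in the other, and 0.556% passed (0.358% as higher in SD). In hyperoxia the groups overlapped (7.25 ± 0.495 in SD and 6.87 ± 0.379 in F344, adjusted p = 0.884), and 0.457% of probe sets passed. In room air 13 of 13 photoreceptor genes were above 0 as well (median 0.33), with a mean level of 8.58 to 9.12 in SD and 8.40 to 8.41 in F344, and 1 passed, the short-wavelength opsin gene Opn1sw, whose call ended in 2 of 21 alternatives; their part in the Tyrp1 difference was not tested.

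No other member passed between strains in any alternative run. Tyr averaged 0.00 between strains (SE 0.29), with 0.40 in room air and -0.40 in hyperoxia. The room-air value was 0.05 without both arrays numbered 3, and the hyperoxia value lay between -1.1 without SD hyperoxia pool 1 and 0.30 without pool 2. Rlbp1 was 0.17 higher in SD (SE 0.111, adjusted p = 0.752). It was apart in hyperoxia, at 10.7 and 10.6 in SD against 10.5, 10.5 and 10.2 in F344, as were 7.59% of all probe sets in this direction and 7.12% in the other, and overlapped in room air. Mlana stood at -0.15, Rpe65 at -0.10, Ttr and Mitf at -0.03 and -0.02, and Slc45a2 at 0.04.

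Within 1 group, pools differed by up to 1.40 for Tyr, more than any 2 groups did in their means. In SD hyperoxia pool 1 exceeded pool 2 in 7 of the 8 genes and in all 5 melanin genes, where 37.1% of all probe sets did, by 1.40 for Tyr (2.64-fold), 0.70 for Tyrp1, 0.60 for Ttr and 0.40 for Mlana. Pool 3 was the highest of its group for Tyr, Tyrp1, Mlana, Slc45a2 and Ttr in SD room air, where it was highest for 30.5% of all probe sets, and for the same 5 genes in F344 hyperoxia, where it was highest for 29.9%. SD room-air pool 1 was the lowest of its group for 6 of 8 members, and for 22% of all probe sets. The 2 F344 room-air pools lay close together, with no member more than 0.30 apart.

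The arrays numbered 3 exceeded the arrays numbered 1 and 2 of their own groups by 1.23 for Ttr (SE 0.139, 2.34-fold, adjusted p = 2.28e-04), 0.90 for Tyr (SE 0.282, adjusted p = 0.0488) and 0.68 for Tyrp1 (SE 0.185, adjusted p = 0.0277), and Rlbp1 fell by 0.40 (SE 0.0901, adjusted p = 0.0106). Thus 3 of 8 members passed as higher, where 7.22% of all probe sets did, and 1 as lower, where 7.62% did (14.8% in all, and 27.5% at an unadjusted p under 0.05, with 5 of 8 members). Slc45a2 (0.20), Mlana (0.23), Rpe65 (0.10) and Mitf (0.00) did not pass. By group, Ttr in pool 3 was 1.30 above the mean of the other pools in SD room air and 1.15 above it in F344 hyperoxia, Tyr 1.05 and 0.75, Tyrp1 0.70 and 0.65, and Rlbp1 -0.50 and -0.30 in the same order. The Tyr call ended without any 1 pool other than the SD hyperoxia pools (adjusted p up to 0.481). That of Tyrp1 ended without any 1 F344 pool or without SD room-air pool 1 or 3, that of Rlbp1 without either pool 3, and that of Ttr without SD room-air pool 3 (adjusted p = 0.0532).

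**Figure D3:**
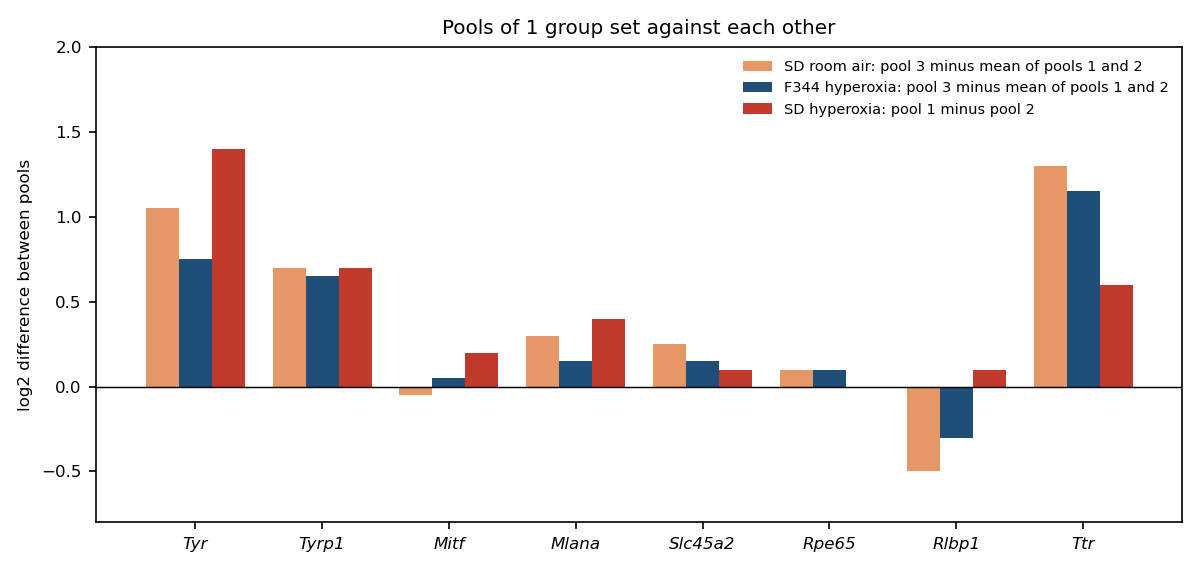
Log2 differences (vertical axis) between pools of the same group for the 8 genes, as bars for SD room air and F344 hyperoxia (pool 3 minus the mean of pools 1 and 2) and for SD hyperoxia (pool 1 minus pool 2). Tyr, Tyrp1 and Ttr lie above 0 in all 3 groups, by 0.60 to 1.40, and Rlbp1 lies at -0.50 and -0.30 in the pools numbered 3.

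Other gene lists were counted in the same comparison, beside the 7.22% of all probe sets that passed as higher and the 7.62% that passed as lower. Of 21 other pigment epithelium genes 4 were higher and 1 lower in the arrays numbered 3 (median 0.15, against 0.00 over all genes), led by Rgr, a retinal opsin of pigment epithelium and Mueller glia, at 1.15 (SE 0.13, adjusted p = 2.26e-04), the potassium channel gene Kcnj13 at 0.68 (SE 0.107, adjusted p = 0.00155) and Timp3, an inhibitor of metalloproteinases in Bruch's membrane, at 0.73 (SE 0.169, adjusted p = 0.0126). The Kcnj13 and Timp3 calls ended without either pool 3, and that of Timp3 also without F344 hyperoxia pool 1 or SD room-air pool 1; the Rgr call held in 18 of 18 alternatives. Of 12 choroid plexus and ciliary epithelium genes all were above 0 and 2 passed (Kcnj13 and Sostdc1, median 0.16). Of 10 fibroblast, choroid and sclera genes 5 were higher and 0 lower (median 0.59), among them Mgp at 0.65 and Lum at 0.93, and of 13 photoreceptor genes 5 were higher and 0 lower (median 0.28), led by Gngt1 at 1.38. Of 13 progenitor and Mueller glia genes 2 were higher and 3 lower (median -0.10), with Slc1a3 at -0.53 and Vim at -0.45 among the lower, while the highest of the list stood at 0.425. Of 14 visual cycle and retinoid genes 2 were higher, Rgr and the retinol dehydrogenase gene Rdh10 (0.35), and of 3 Mitf-family factors none passed. Of 8 lens genes 1 was higher (Cryab) and of 5 erythroid genes 1 (Hbb). With so few members, 1 or 2 calls in a list do not set it apart from the share over all probe sets. Without SD room-air pool 3 the calls of Rdh10, Sostdc1, Mgp, Lum, Slc1a3, Vim, Cryab (0.45, against 1.15 with the pool) and Hbb (0.40, against 0.68) ended too, and that of Gngt1 held. Over all alternatives the Hbb call ended in 7 of 18, that of Rdh10 in 6 of 18, that of Lum in 4 of 17 and that of Cryab in 3 of 17.

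The fibroblast, choroid and sclera list averaged 5.07 to 5.55 in SD hyperoxia, 5.20 to 6.29 in SD room air, 5.31 to 5.50 in F344 hyperoxia and 5.31 to 5.32 in F344 room air. The 5 melanin genes averaged 5.38 to 5.94, 5.16 to 5.78, 5.62 to 5.98 and 5.14 to 5.24 in the same groups. Both lists varied least in F344 room air, which has 2 pools. No gene of any list is at 0, since array values do not reach it, and the part of these lists in the values of Tyr, Tyrp1 and Ttr was not tested.

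The other melanosome and pigment cell genes did not follow Tyr as a list. Of 26 measured, 11 were above and 15 below 0 in F344 hyperoxia (median -0.08), and 0 passed, where 0.00366% of all probe sets did. The 2 of largest difference were the melanosomal glycoprotein gene Gpnmb at 0.73 (SE 0.348) and the cation channel gene Trpm1 at 0.43 (SE 0.199). Gpnmb stood at 6.1, 6.0 and 7.2 in F344 hyperoxia, against 5.7 and 5.7 in room air. Trpm1 stood at 5.4, 5.4 and 5.5, against 5.0 and 5.0. Both were apart, as were 5.97% of all probe sets in this direction. How many others of the list were apart was not counted. In SD 17 were above and 8 below 0 (median 0.06), and 0 passed, where 0.0439% of all probe sets did. Trpm1 stood at 0.37 and Oca2, a melanosomal anion channel gene, at 0.32 (SE 0.177). In the arrays numbered 3, 2 of the 26 passed as higher and 4 as lower, where 14.8% of all probe sets passed in either direction, the smallest p being those of the receptor kinase gene Kit at -0.43, Hps3 at -0.45 and Lyst at -0.40. All 3 of these calls ended without either pool 3.

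Between strains, averaged over exposures, 1 of the 26 passed, where 0.808% of all probe sets passed as higher in SD and 1.35% in either direction. Hps1 encodes a subunit of the BLOC-3 complex that delivers cargo to melanosomes and other lysosome-related organelles. Read from 1 probe set, its signal was 0.61 higher in SD than in F344 (SE 0.0971, adjusted p = 0.00646). Whether the probes match both strains equally was not examined for Hps1. The Hps1 values were 6.5 and 6.5 in SD hyperoxia and 6.4, 6.7 and 6.3 in SD room air. In F344 they were 5.9, 5.9 and 5.6 in hyperoxia and 5.9 and 6.0 in room air. All 5 SD pools lay above all 5 F344 pools, and how many of all probe sets are apart in this way was not counted. The call ended without either SD hyperoxia pool or without F344 room-air pool 1, at an adjusted p of 0.0523 to 0.058, with the difference between 0.55 and 0.65 in all alternatives run.

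Other lists showed no calls with exposure, where 0.00366% of all probe sets passed in F344 and 0.0439% in SD. Of 21 other pigment epithelium genes 11 were above and 10 below 0 in F344 (median 0.02) and 10 above and 11 below in SD (median -0.02), with 0 passing in either. Kcnj13 stood at 0.35 in F344, and Rrh at 0.35 in SD but at -0.23 in F344. Of 14 visual cycle and retinoid genes 10 were above 0 in F344 (median 0.07) and 9 in SD (median 0.05), with 0 passing, and the retinoic acid-binding protein gene Crabp2 stood at -0.48 in SD (SE 0.113, adjusted p = 0.484). Among 3 measured Mitf-family factors, Tfec stood at 0.20 and Tfeb at -0.28 in SD, and Tfeb at -0.13 in F344. The fibroblast, choroid and sclera list had a median of 0.01 in F344 and -0.28 in SD, where 10 of 10 were below 0 and 0 passed. Within that list Dcn stood at 1.00 in F344 (SE 0.429), at 4.9, 5.3 and 5.7 in hyperoxia against 4.4 and 4.2 in room air. Lum stood at 0.45 (SE 0.362), and both had an adjusted p of 0.921 by limma. In F344, 2 of the 10 had an unadjusted p under 0.05, against 4.83% of all probe sets. The part of Dcn and Lum in the Tyr difference was not tested.

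For the 3 members with a range of at least 1 over the pools, the genes of most similar profile were found by the mean absolute difference over 10 arrays, after each gene was centred on its own mean. For Ttr these were Tac1 (0.110), Rgr (0.124), Ptgds (0.124), Uchl3 (0.148) and Lum (0.148). For Tyrp1 they were Pde6b and Sag (0.160 each), genes of rod phototransduction, then Slc7a8 (0.210), Rpp38 (0.212) and Tulp1 (0.212). For Tyr they were Gpnmb (0.250), Ptgds (0.284), the cystine transporter gene Slc7a11 (0.288), and the collagen-binding proteoglycan genes Dcn (0.290) and Lum (0.296). The genes nearest to Tyr lay farther from it than those nearest to Ttr from Ttr. Neither Tyr nor Tyrp1 was among the 5 nearest of the other, and Ptgds and Lum were shared by Tyr and Ttr.

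**Figure D4:**
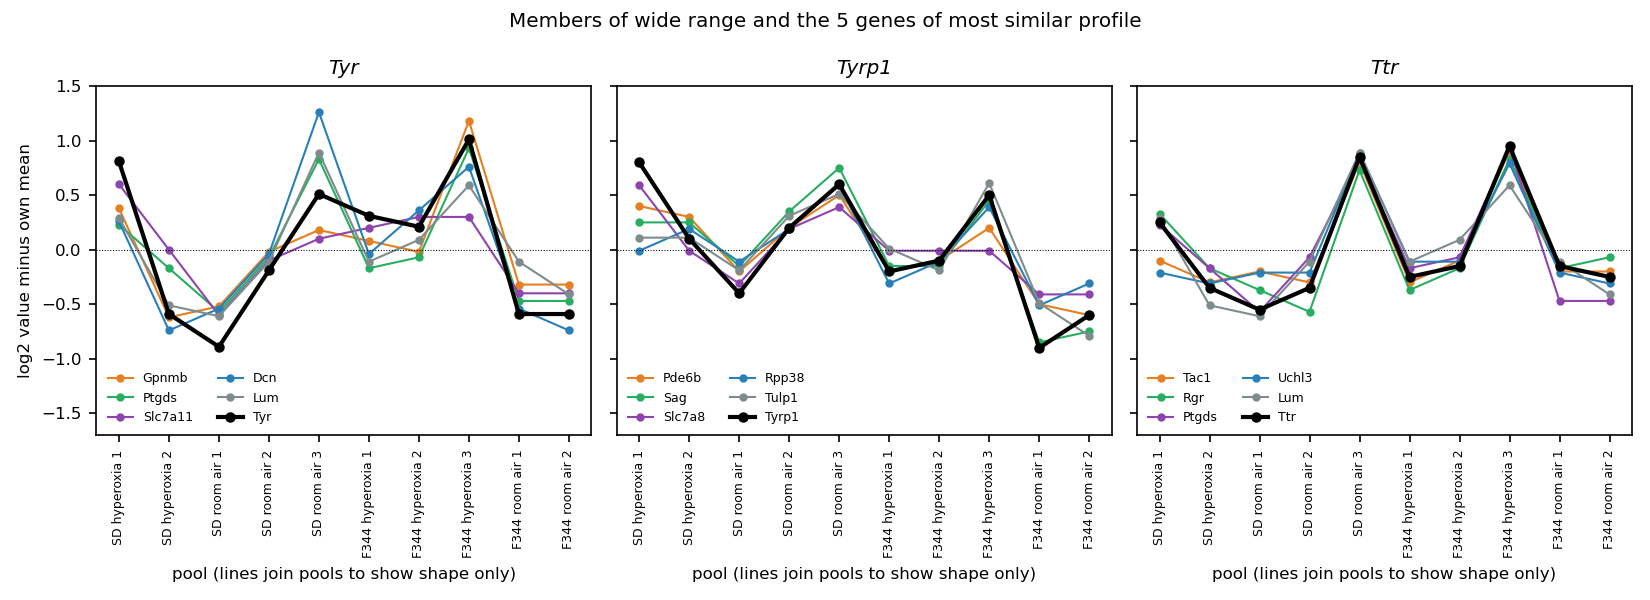
Log2 values minus each gene's own mean over 10 arrays (vertical axis) in the 10 pools (horizontal axis), for Tyr, Tyrp1 and Ttr in black and for the 5 genes of most similar profile in colour; lines join pools only to show shape. Ttr and its nearest genes rise in the pools numbered 3, while Tyr is also high in SD hyperoxia pool 1, at 6.4 against 5.0 in pool 2.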

How the data were processed

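Retinal RNA of 10 pools was measured on 1 array each. The deposited values are log2 expression per probe set, to 1 decimal; per the submitters' processing notes the tools were RMA and Partek 6.4, whose settings and annotation version are not stated. The number of arrays limits the precision. Platform annotation gave 15097 probe sets 1 symbol, 323 several and 11922 none; current symbols came from a RefSeq table of GRCr8 (15067 matched). Group means were fitted over 10 arrays and all probe sets with limma 3.58.1 in R 4.3.3 (lmFit, eBayes, 6 residual degrees of freedom, two-sided, Benjamini-Hochberg adjustment, threshold 0.05), after a check on simulated data. A second fit added a term for the arrays numbered 3. All measured members are named; of other lists, up to 3 genes that passed by smallest p, or up to 2 of largest difference. Genes of similar profile were sought for members with a range of at least 1. Other genes and settings named were chosen after their values were seen. Members and lists were chosen with earlier results of these data known. The labels do not say that replicate numbers pair the pools. Deviations of same-numbered pools correlated over 0.1 in 4 of 13 pairs, 3 of them between SD room air and F344 hyperoxia (0.314 to 0.643), which no comparison sets against each other alone, so the numbers were not used as a pairing. Promoters are RefSeq's; no protein table was at hand, so a planned comparison of the tyrosinase family proteins was not made. Alternatives tried were probe set filters and summaries, eBayes settings, normalization, centring, array weights, fewer groups, the replicate block, the added term and leaving out arrays.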

Additional observations from a re-analysis of the deposited data

How the results depend on the processing

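In the 7 comparisons of exposure and strain, 0 of 8 members passed in every alternative run, with 1 exception. In SD minus F344 averaged over exposures, 1 member (Tyrp1) passed with the replicate block and also with the added-array term. Both fits left its difference at 0.63, and the cause was not tested. The share of all probe sets that passed in those fits is not given here. The arrays numbered 3 had 4 members past the threshold, and between 0 and 4 when 1 pool was left out. It was 3 under quantile normalization, robust eBayes with trend, array weights, the replicate block or the brighter probe sets alone. The replicate block changed no other member call than those of Tyrp1 between strains and Tyr in the arrays numbered 3 (adjusted p = 0.0662); the labels do not say that a number pairs pools. Where leaving out a pool left a single one in its group, that pool was assumed to vary like the others. Of 1256 member differences recomputed, 24 moved by more than the spread between replicates (1 SD). These were Tyr and Mlana without an SD hyperoxia pool, and Tyrp1, Slc45a2, Rlbp1 and Ttr for the strain difference of the exposure effect. The latter genes moved with the block, the added-array term or without both arrays numbered 3. Reversal was counted only for the 4 members called in the arrays numbered 3, and 0 reversed. Among differences not called, signs did turn: Tyr in SD went from 0.30 to -0.40 without SD hyperoxia pool 1. Filtering to the brighter probe sets left only Tyrp1, Rlbp1 and Ttr of the members. Rounding to 1 decimal limits Rpe65, Slc45a2 and Mitf, whose ranges were 0.3 to 0.4.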
